A study of Mus musculus with 37 samples.

Results

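The genes described here are those of the proteasome and of antigen presentation on major histocompatibility complex (MHC) class I, taken by their symbols from a table of mouse myeloid cells. Every gene whose symbol begins with Psma to Psmg, H2- or Tapbp was taken, together with a short list of named loading and control genes. This gave 38 of the 6509 genes in the table, of which 21 were proteasome genes, 15 were MHC or peptide-loading genes, and 2 (H2-Ke2 and H2-Ke6) carry an H2- symbol but encode no MHC chain. All 38 had a mean of at least 10 in at least 1 group. H2-Q1 rests on 1 retained-intron transcript (ENSMUST00000172994), which the GENCODE vM1 annotation gives to H2-Q2, and is called H2-Q1 below only as the table names it. A further 23 genes that the choice named, among them Psmb8, Psmb9, Psme1, Psme2, Tap1, Tap2, B2m, Nlrc5, Cd74, Ciita and the class II chains, were not analysed here, so antigen presentation below means the class I side only.

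RNA-seq was made from C57Bl6cJ mice in 5 myeloid cell types. Macrophages came from the peritoneum after thioglycollate, neutrophils from the bone marrow of pooled mice (kept overnight with the growth factor GM-CSF), and dendritic cells from the spleen (sDCs), whereas the mast cells and eosinophils were differentiated in culture from marrow. Macrophages, neutrophils, sDCs and mast cells were left untreated, or were given IL-10 (a cytokine that dampens inflammation), LPS (bacterial endotoxin), or IL-10 and then LPS, and eosinophils were left untreated or given LPS. Both agents were used at 100 ng/ml, IL-10 for 4 h and LPS for a further 4 h, and in the study's treatment scheme the groups with LPS were harvested later than those without it, so that LPS cannot be told apart from the longer culture. Each of the 18 groups had 2 replicates, but the table holds only the authors' mean of each group after normalization. The first replicate of the untreated and IL-10 macrophage groups was a published library that was analysed again. Since the means carry no SD, whether a difference exceeded the spread between replicates could not be tested, and no p-value is given. Differences are given on log2(mean + 1), and a difference of at least 2-fold (1 on this scale) is counted.

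The proteasome is the barrel-shaped protease that degrades ubiquitin-tagged proteins. Its 20S core is built of alpha and beta subunits, and its 19S cap unfolds and feeds in the substrate. In cells exposed to interferon, some catalytic beta subunits are replaced by immunoproteasome subunits such as Psmb10, and the PA28 cap (Psme1 and Psme2) replaces the 19S cap on part of the cores. The peptides are loaded onto class I heavy chains in the endoplasmic reticulum with the help of tapasin (Tapbp), its relative Tapbpl, the chaperones calreticulin (Calr) and calnexin (Canx), and the trimming peptidase Erap1. H2-K1 and H2-D1 are the classical class I chains that present to CD8 T cells, and the H2-Q and H2-T genes of the same cluster are the non-classical, more cell type-restricted chains.

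The regions around the start sites are shown first, for genes that did and did not differ with LPS and share a motif. RefSeq promoters (build GRCm38.p6, 250 bases before to 50 bases after the start site) were found for 32 of the 38 genes, 18 of the proteasome and 12 of the MHC and loading group. A kB-like motif (GGGNNTTCC, either strand), the type of element bound by NF-kB, was found in 5 of the 12 MHC and loading genes (H2-D1, H2-K1, H2-Q4, H2-Q6 and H2-Q7), in 0 of the 18 proteasome genes, and in 5.82% of all 32851 promoters. An ISRE-like motif (GAAANNGAA, either strand), the type of element bound by interferon-regulated factors, was found in 3 of the 12 (Erap1, H2-T22 and H2-T23), in 2 of the 18 (Psmb3 and Psmd9), and in 8.56% of all promoters. A GAS-like motif (TTCNNNGAA, a palindrome), the type bound by STAT factors, was found in 0 of the 12 and 1 of the 18 against 8.3% of all, and a motif of the type bound by the proteasome regulator Nfe2l1 (TGACNNNGC, either strand) in 4 of the 12 and 4 of the 18 against 12.4%. The windows of 5 genes are printed 5′ to 3′ in the direction of the gene, with the kB-like motif in capitals in the first 3 and the ISRE-like motif in capitals in the last 2. Overlapping ISRE-like matches in Erap1 form 1 run of capitals. H2-Q4, H2-Q7 and H2-T22 are among the genes that differed by at least 2-fold with LPS, whereas H2-D1 and Erap1 carry the same motifs and did not.
H2-Q4, chr17:35379367-35379666, plus strand: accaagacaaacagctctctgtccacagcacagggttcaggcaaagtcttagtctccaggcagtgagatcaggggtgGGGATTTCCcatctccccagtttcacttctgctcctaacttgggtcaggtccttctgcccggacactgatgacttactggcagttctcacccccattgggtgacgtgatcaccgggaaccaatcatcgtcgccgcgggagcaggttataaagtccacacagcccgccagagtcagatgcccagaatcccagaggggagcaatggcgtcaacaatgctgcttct
H2-Q7, chr17:35438905-35439204, plus strand: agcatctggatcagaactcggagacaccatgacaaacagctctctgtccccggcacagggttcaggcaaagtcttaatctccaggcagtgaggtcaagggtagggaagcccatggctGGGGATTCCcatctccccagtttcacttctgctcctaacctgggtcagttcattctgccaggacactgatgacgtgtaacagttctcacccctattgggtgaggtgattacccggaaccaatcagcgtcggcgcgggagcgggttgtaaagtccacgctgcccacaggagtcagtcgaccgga
H2-D1, chr17:35262844-35263143, plus strand: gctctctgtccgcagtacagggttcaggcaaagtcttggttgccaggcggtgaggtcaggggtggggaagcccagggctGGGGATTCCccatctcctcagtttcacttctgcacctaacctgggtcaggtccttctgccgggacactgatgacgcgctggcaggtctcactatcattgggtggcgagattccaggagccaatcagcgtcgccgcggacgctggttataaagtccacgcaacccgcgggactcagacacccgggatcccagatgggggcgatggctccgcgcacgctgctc
H2-T22, chr17:36042693-36042992, minus strand: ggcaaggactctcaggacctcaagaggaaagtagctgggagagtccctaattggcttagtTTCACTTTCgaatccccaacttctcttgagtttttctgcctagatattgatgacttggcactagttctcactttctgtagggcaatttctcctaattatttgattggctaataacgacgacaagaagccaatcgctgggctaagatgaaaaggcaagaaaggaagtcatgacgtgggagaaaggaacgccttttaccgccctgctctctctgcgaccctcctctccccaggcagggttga
Erap1, chr13:74639603-74639902, plus strand: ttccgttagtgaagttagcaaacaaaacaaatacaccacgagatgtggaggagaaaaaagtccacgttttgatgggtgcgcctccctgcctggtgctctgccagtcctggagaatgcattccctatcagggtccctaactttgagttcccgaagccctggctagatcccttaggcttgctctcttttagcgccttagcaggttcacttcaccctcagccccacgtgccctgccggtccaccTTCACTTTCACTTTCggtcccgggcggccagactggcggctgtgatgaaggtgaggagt
The motif began 173 bases before the start site in H2-Q4, 133 bases in H2-Q7, 171 bases in H2-D1 and 190 bases in H2-T22, and its matches in Erap1 began 9 and 3 bases before it. The match had the same letters in H2-D1, H2-K1, H2-Q6 and H2-Q7. These genes and H2-Q4 are related class I chains with similar windows. Their 5 matches are therefore not independent, and no enrichment can be read from that count beside the share of all promoters. A motif match is a description of the letters and not evidence that a factor bound there. A missing match is likewise no evidence that an element is absent, since each pattern covers only 1 spelling. The windows of H2-D1, H2-K1, H2-Q4, H2-Q6, H2-Q7 and H2-Q10 hold the letters agtttcacttct. These resemble the ISRE-like match of H2-T22 and Erap1, but the pattern used does not match them. They were therefore not counted, and similar spellings were not searched for in the other promoters.

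The labelled cell types were compared with their markers in ranges over the groups of each type. The mast cell markers Kit, Tpsb2 and Tpsab1 summed to 277675 to 325478.5 in mast cells, the eosinophil markers Epx and Ccr3 to 221356 to 231327.5 in eosinophils, and the 6 neutrophil markers in the table to 55431 to 233611 in neutrophils. Of the dendritic cell markers, Xcr1 and Clec9a had their highest untreated means in sDCs (189.5 and 243.5). Itgax was higher in macrophages (13861 untreated) than in sDCs (4075.5). With LPS, Xcr1 had 201.5 in sDCs and 63.5 in macrophages, whereas Clec9a had 49.5 in sDCs and 103.5 in neutrophils. These 3 dendritic cell markers summed to 910.5 to 4508.5 in sDCs and to 5485.5 to 13926 in macrophages. In neutrophils the 4 B cell markers in the table summed to 3790.5 to 5975.5 and the eosinophil markers to 19648 to 23628. In sDCs the B cell markers summed to 1564 to 1880.5. Cd4, the only listed T cell marker in the table, lay between 876 and 2306.5 there. Whether Cd4 came from T cells or from the dendritic cells cannot be told from bulk samples. The part of other cell types in the levels below was not tested. In bulk samples fewer cells of a type and less RNA per cell cannot be told apart either.

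At rest, most class I chains were highest in sDCs, while the proteasome genes were closer in level across the 5 cell types. The highest untreated mean was in sDCs for 9 of the 15 MHC and loading genes (60%), against 20.1% of all genes. It was in macrophages for 12 of the 21 proteasome genes (57.1%), against 24.4% of all genes. The ratio of the highest to the lowest untreated mean (each with 1 added) had a median of 1.87 over the 21 proteasome genes, 8.14 over the 15 MHC and loading genes and 4.09 over all 6470 genes kept at rest. A ratio of at least 2 was found for all 15 MHC and loading genes and for 10 of the 21 proteasome genes (47.6%), against 79.4% of all genes. The study lists the sDC libraries, and the second replicate of the mast cell groups, as made with another library kit than the rest, and its part in these levels was not tested.

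Among the classical chains, H2-K1 (chr17:34132962-34137278 in NCBIM37, the build of the table) had untreated means of 56327.5 in sDCs, 15494.5 in macrophages, 7030 in neutrophils, 6210 in eosinophils and 6114.5 in mast cells. H2-D1 was more even, with 45792 in sDCs, 35481.5 in macrophages, 18426.5 in neutrophils, 17647 in eosinophils and 13920.5 in mast cells. Both followed the same order of cell types, with eosinophils and mast cells nearly level for H2-K1. The widest spread was in the non-classical H2-Q genes. H2-Q6 (chr17:35561795-35567000) had 19014.5 in sDCs, 775 in neutrophils, 232 in macrophages, 44 in eosinophils and 24 in mast cells. H2-Q7 (chr17:35576100-35580714), its neighbour on the same strand, had 23355 in sDCs, 1112 in neutrophils, 580 in macrophages, 103.5 in eosinophils and 76 in mast cells. Most of H2-Q7 was the retained-intron transcript ENSMUST00000173788. It made up 61.4% in macrophages, 72.1% in sDCs, 83.7% in neutrophils, 96.1% in mast cells and 98.6% in eosinophils. These neighbours share sequence, since 28.8% of the 50-base windows of H2-Q6 and 22% of those of H2-Q7 also occur in transcripts of other genes, so their reads may have been split between them. H2-Q4 (chr17:35516562-35522235) stood at 13148 in sDCs and between 470.5 and 1779 elsewhere.

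Other chains went against this order. H2-T24 was lowest in sDCs, at 97, and lay between 446.5 and 796.5 in the other cell types. H2-T23, which encodes the Qa-1 chain recognised by natural killer cell receptors, had nearly the same mean in sDCs (8078.5) and mast cells (7995.5) and its lowest in neutrophils (2384.5). H2-Q10, known as a secreted class I chain of the liver, was highest in neutrophils, at 2598, with 1704 in sDCs and between 61.5 and 109 elsewhere. That mean was made of unlike transcripts. The coding transcript ENSMUST00000068291 had 1152 in untreated neutrophils, 1506 with IL-10, 822 with LPS and 978.5 with both, and was at 2 or below in all 14 groups of the other cell types. The retained-intron transcript ENSMUST00000174589 made up nearly all of H2-Q10 outside neutrophils, and 17.7% of the windows of H2-Q10 occur in other genes, mostly H2-Q7.

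Of the loading genes, Tapbp (chr17:34052844-34066235) was highest in macrophages (12609) and sDCs (12111.5) and lay between 4590 and 6107.5 in the other cell types. Tapbpl had 2298 in sDCs and between 229.5 and 554.5 elsewhere. Calr was ordered the other way, with 46180.5 in eosinophils, 45008.5 in macrophages, 30612.5 in neutrophils, 13015 in mast cells and 8948 in sDCs. Canx likewise had its lowest mean in sDCs (11035.5) and its highest in macrophages (33410.5). Both chaperones also serve the folding of other glycoproteins.

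**Figure D1:**
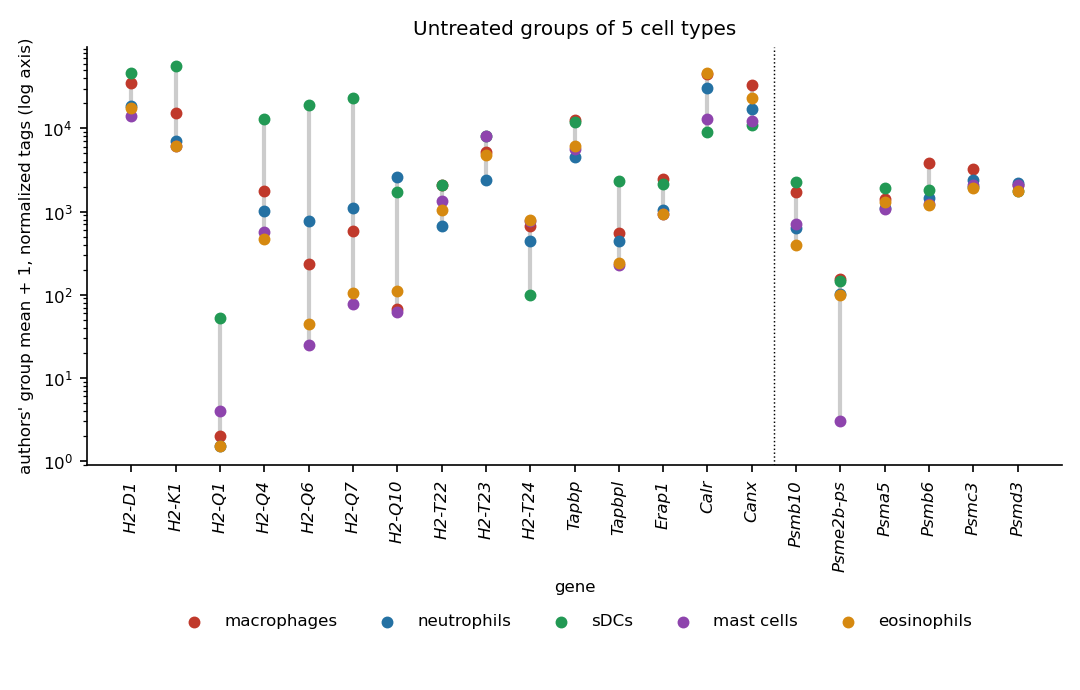
Authors' means of the untreated groups plus 1, in normalized tags on a log axis, for the 15 MHC and peptide-loading genes and, right of the dotted line, 6 proteasome genes; each point is 1 cell type and the grey bar spans lowest to highest. H2-Q6 spans 24 in mast cells to 19014.5 in sDCs, whereas Psmd3 spans 1754.5 to 2192.

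Within the proteasome, the 14 core and cap subunits of the standard particle had ratios between 1.25 (Psmd3, a 19S cap subunit) and 3.14 (Psmb6, a catalytic beta subunit of the standard core). Psmb6 had 3804 in macrophages, 1830 in sDCs, 1451 in neutrophils, 1229.5 in mast cells and 1212.5 in eosinophils. Psmb10 (chr8:108459628-108462292), which takes the place of a standard catalytic subunit in the immunoproteasome, had another order, with 2258.5 in sDCs, 1726 in macrophages, 705 in mast cells, 629 in neutrophils and 390.5 in eosinophils. The assembly chaperone Psmg1 had 137 in sDCs and between 280 and 327 elsewhere. Psme4, the PA200 activator, was highest in eosinophils, at 5058.5.

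The table also lists Psme2b-ps (chr11:48758856-48759692), whose symbol names it a pseudogene of the PA28 beta subunit. The GENCODE vM1 annotation nevertheless lists its transcript ENSMUST00000104958 as protein coding, and RefSeq names the gene Psme2b. Its untreated means were 151.5 in macrophages, 145.5 in sDCs, 101.5 in neutrophils, 97.5 in eosinophils and 2 in mast cells. Of its 50-base windows 68.7% also occur in Psme2, which was not analysed here, so reads of Psme2 may have been counted there.

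LPS separated the 2 parts of the group. In macrophages, neutrophils, sDCs and mast cells, some class I chains and loading genes were at least 2-fold higher with LPS. Each of these cell types had its own set. None of the 14 standard core and cap subunits differed by 2-fold in any cell type. With LPS the median difference of all genes was -0.15 in macrophages, -0.14 in sDCs, -0.08 in mast cells, -0.03 in neutrophils and -0.02 in eosinophils, and the list medians below are to be read against these shifts. In macrophages 2 of 21 proteasome genes were at least 2-fold higher and 0 lower, where 12.7% of 6064 genes were higher and 14.8% lower. Of the 15 MHC and loading genes there, 8 were at least 2-fold higher and 2 lower (Calr and Canx), with a median difference of 1.09. Among the 8 was H2-Q1, at means of only 1 and 5.5. In neutrophils 1 of 21 proteasome genes and 4 of 14 MHC and loading genes were at least 2-fold higher, against 8.71% of 5949 genes, and none was lower, against 7.88%. In sDCs these numbers were 1 of 21 and 4 of 15, against 9.04% of 6050 genes, with none lower, against 11.5%. In mast cells they were 0 of 20 and 5 of 14, against 4.76% of 5734 genes, with none lower, against 5.46%. In eosinophils no member differed by 2-fold, where 2.16% of 5559 genes were higher and 0.702% lower. Over the class I chains alone, the median was 1.40 in macrophages, 0.87 in mast cells, 0.70 in neutrophils and 0.18 in eosinophils. In sDCs it was 0.24, with 6 of 10 chains above 0.

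**Figure D2:**
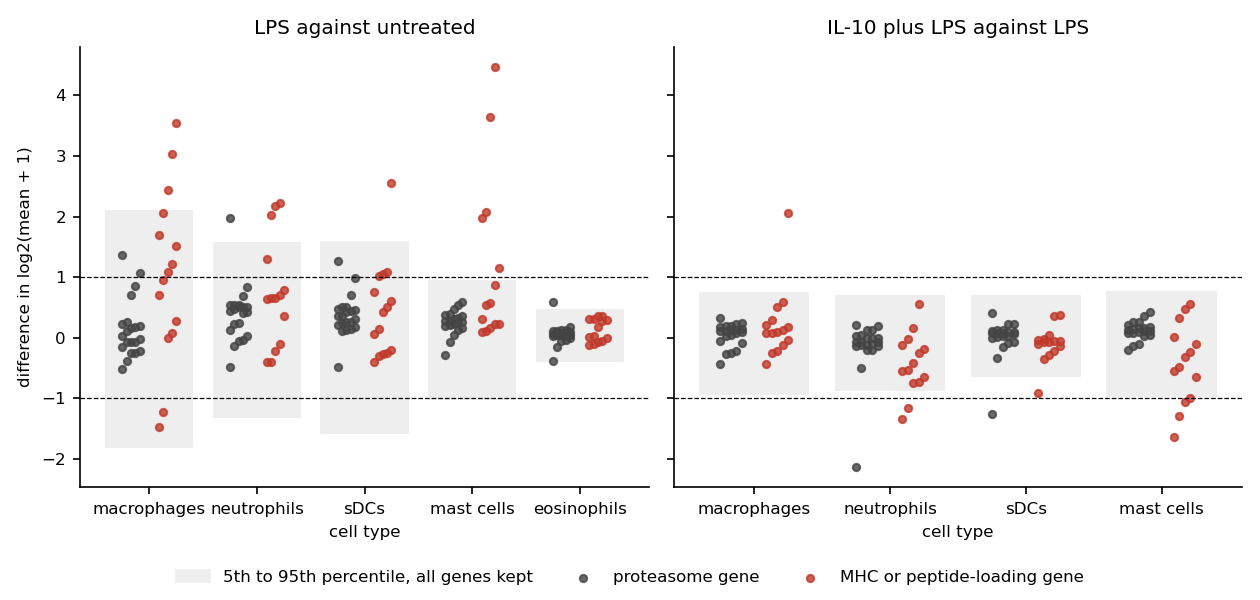
Difference in log2(mean + 1) of each kept proteasome gene (dark) and MHC or peptide-loading gene (red) by cell type, with LPS against untreated on the left and IL-10 plus LPS against LPS on the right; grey boxes span the 5th to 95th percentile of all genes kept and dashed lines mark 2-fold. With LPS the proteasome genes lie inside the 2-fold lines apart from Psme2b-ps in 3 cell types and Psmb10 in macrophages, while H2-Q6 reaches 3.54 in macrophages and 4.47 in mast cells.

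The chains that differed with LPS were not the same in each cell type. H2-Q6 went from 232 to 2711.5 in macrophages (difference 3.54) and from 24 to 554.5 in mast cells (4.47). In neutrophils it went from 775 to 1258.5 (0.70), and in sDCs, where it was already highest, from 19014.5 to 15471.5 (-0.30). With LPS, too, H2-Q6 was highest in sDCs. H2-Q7 followed the same pattern, from 580 to 4731.5 in macrophages (3.03), 76 to 960.5 in mast cells (3.64), 1112 to 1745 in neutrophils (0.65) and 23355 to 20139.5 in sDCs (-0.21). Its retained-intron transcript went from 356 to 2900.5 in macrophages and from 73 to 843 in mast cells. Its main coding transcript, ENSMUST00000071951, went from 212 to 1602.5 in macrophages and from 2.5 to 69 in mast cells. H2-Q10 was also higher in macrophages (65.5 to 361, 2.44) and mast cells (61.5 to 263, 2.08). Its coding transcript was listed at 0 in all of these 4 groups, so both differences came from the retained-intron transcript.

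H2-Q4 joined macrophages, neutrophils and mast cells. It went from 1779 to 7387 in macrophages (2.05), from 1024.5 to 4825 in neutrophils (2.23), from 569.5 to 2243 in mast cells (1.98) and from 13148 to 13697.5 in sDCs (0.06). H2-Q4 encodes the Qb-1 chain. The H2-T genes gave another grouping. H2-T22 (chr17:36174073-36179692), whose product is a ligand of gamma delta T cells, went from 677.5 to 3069 in neutrophils (2.18), from 2105 to 4348 in sDCs (1.05), from 2090.5 to 4031 in macrophages (0.95) and from 1322.5 to 1552.5 in mast cells (0.23). H2-T22 shares 21.4% of its windows with other genes, most of them with H2-T10, and the count in macrophages falls just short of 2-fold. H2-T24 went from 97 to 573 in sDCs (2.55), from 446.5 to 1828 in neutrophils (2.03), from 678.5 to 1446 in macrophages (1.09) and from 762.5 to 823.5 in mast cells (0.11). With LPS, H2-T24 was still lowest in sDCs, against 757.5 to 1828 in the other cell types.

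The classical chains differed less. H2-K1 had differences of 0.70 in macrophages (15494.5 to 25150.5), 0.65 in neutrophils (7030 to 11055.5), 0.87 in mast cells (6114.5 to 11140.5), 0.31 in eosinophils (6210 to 7719) and -0.40 in sDCs (56327.5 to 42711.5). H2-D1 lay between -0.26 in sDCs and 0.31 in mast cells, and H2-T23 between -0.13 in eosinophils and 0.79 in neutrophils. H2-Q1 was counted in macrophages (1.70), but at means of 1 and 5.5, and it was kept there only through the groups with IL-10 (11) and with both agents (26).

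Tapasin was higher in 3 cell types. Tapbp went from 12609 to 29080 in macrophages (1.21), from 4590 to 11307 in neutrophils (1.30), from 12111.5 to 24375.5 in sDCs (1.01), from 5659 to 8377.5 in mast cells (0.57) and from 6107.5 to 7505 in eosinophils (0.30). Tapbpl, which edits the peptides of class I chains outside the main loading complex, went from 554.5 to 1583 in macrophages (1.51) and from 2298 to 4846.5 in sDCs (1.08). Its difference was 0.64 in neutrophils, 0.54 in mast cells and 0.27 in eosinophils. Erap1 lay between -0.11 in neutrophils and 0.75 in sDCs. In sDCs, markers of other cells were lower with LPS at the same time (Mpo 4890 to 714, Kit 8800 to 5718.5). So were Itgax (4075.5 to 818.5) and Cd4 (2306.5 to 1092), whose cell of origin there is not known. The part of these shifts in the sDC differences was not tested.

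The chaperones Calr and Canx moved apart from the chains. Calr (chr8:87365749-87370833) went from 45008.5 to 16091 in macrophages (-1.48) and from 13015 to 28834.5 in mast cells (1.15). In neutrophils it went from 30612.5 to 23105 (-0.41), in sDCs from 8948 to 7410.5 (-0.27), and in eosinophils from 46180.5 to 46133. Canx went from 33410.5 to 14222.5 in macrophages (-1.23) and lay between -0.10 and 0.35 in the other 4 cell types. In macrophages the endoplasmic reticulum chaperone Hsp90b1, taken with the wider pathway list, was also lower (21103 to 10048, -1.07).

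Of the proteasome genes, only Psmb10 and Psme2b-ps differed by 2-fold with LPS. Psmb10 went from 1726 to 3629.5 in macrophages (1.07) and from 2258.5 to 4489 in sDCs (0.99, just short of 2-fold). Its difference was 0.59 in eosinophils (390.5 to 589.5), 0.43 in neutrophils (629 to 846) and 0.21 in mast cells (705 to 816.5). Psmb10 shares none of its windows with another gene. Psme2b-ps went from 101.5 to 402.5 in neutrophils (1.98), from 151.5 to 391 in macrophages (1.36), from 145.5 to 350.5 in sDCs (1.26) and from 97.5 to 74 in eosinophils (-0.39). In mast cells it was at 7 or below in every group and was not kept.

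The 14 standard subunits stayed under 2-fold, and most of them lay above 0 in each cell type, by the smallest margin in macrophages. Their median difference with LPS was 0.49 in neutrophils (13 of 14 above 0), 0.35 in sDCs (14 of 14), 0.31 in mast cells (14 of 14), 0.07 in macrophages (8 of 14) and 0.06 in eosinophils (12 of 14). In neutrophils they ran from -0.04 for the beta subunit Psmb3 to 0.83 for the cap subunit Psmd1, and in macrophages from -0.52 for Psmd1 to 0.71 for Psmb6. The 19S assembly chaperone Psmd10, also called gankyrin, had 0.86 in macrophages (808.5 to 1466.5) and 0.69 in neutrophils (353.5 to 569). The 20S assembly chaperone Psmg1 was lower in sDCs (137 to 98, -0.48) and macrophages (280 to 214, -0.39).

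**Figure D3:**
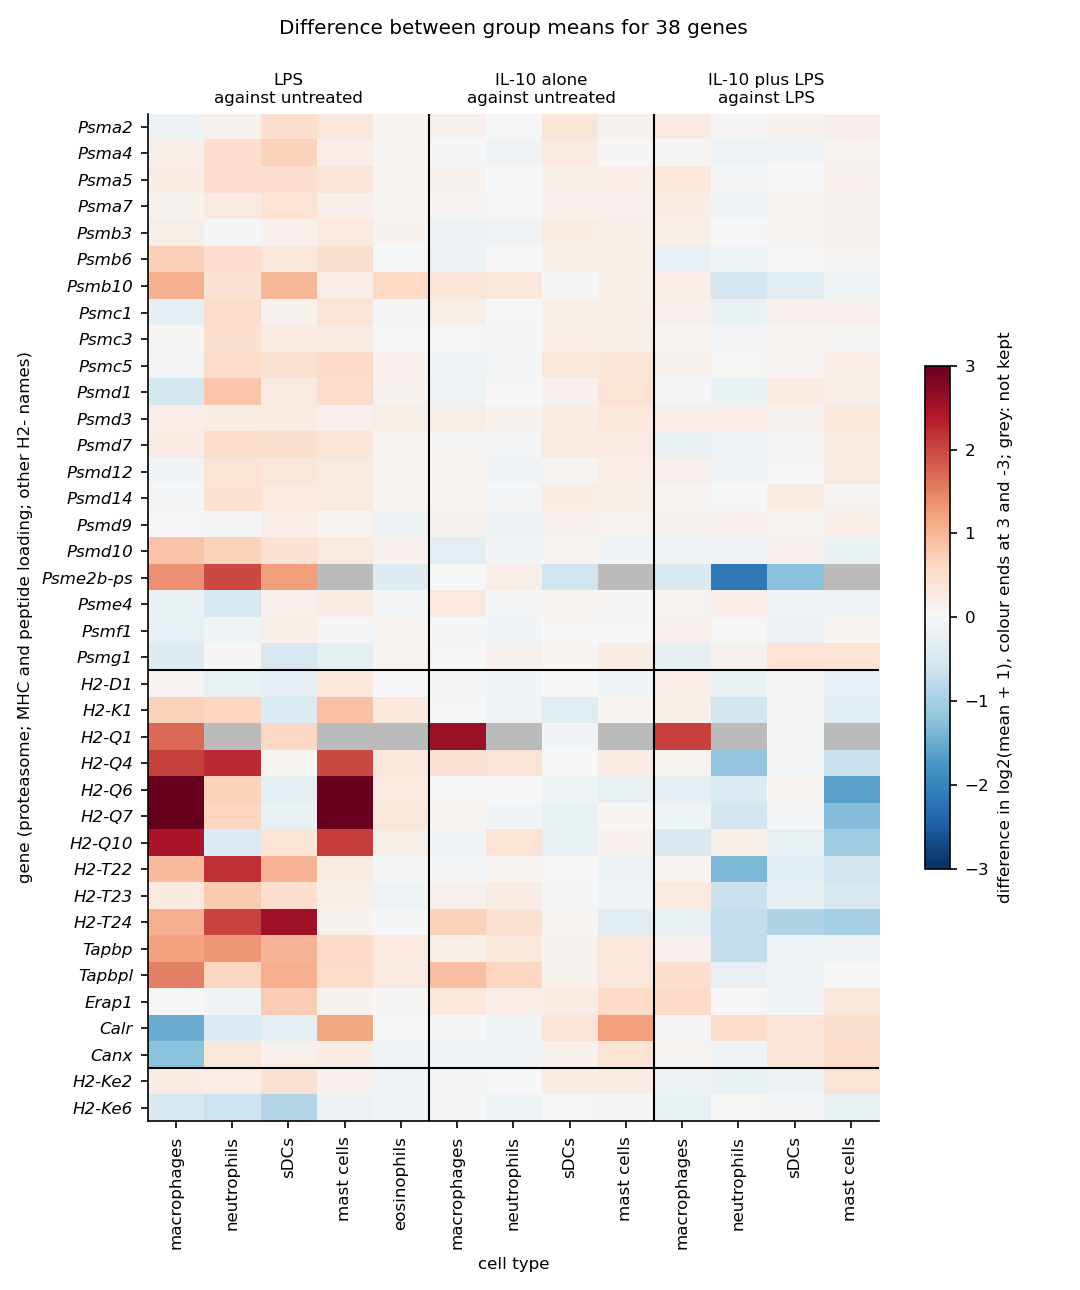
Difference in log2(mean + 1) between group means for the 38 genes (rows) in the 13 comparisons (columns), with red higher and blue lower in the group with the named agent, colour ending at 3 and -3, and grey for genes not kept in that cell type. The red cells of the LPS columns lie mainly among the H2-Q, H2-T and Tapbp rows of macrophages, neutrophils, sDCs and mast cells, and the IL-10 columns are pale apart from H2-Q1 in macrophages (2.58) and Calr in mast cells (1.24).

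IL-10 alone moved few members. At least 2-fold differences were found for 1 of 15 MHC and loading genes in macrophages (4.49% of all genes in either direction), 0 of 14 in neutrophils (2.17%), 0 of 15 in sDCs (2.43%) and 1 of 14 in mast cells (5.04%), and for none of the proteasome genes. In macrophages the gene was H2-Q1, at means of 1 and 11 (2.58). H2-Q1 was kept there only through the groups with IL-10, where it was higher, so this count is no evidence of a difference. In mast cells the gene was Calr, which went from 13015 to 30802 (1.24), close to its mean of 28834.5 with LPS, and had 39953 with both agents. Hsp90b1 in mast cells went from 20029 to 38536.5 with IL-10 (0.94). Short of 2-fold, Tapbpl had 0.91 in macrophages (554.5 to 1040) and 0.64 in neutrophils (445 to 692.5), and H2-T24 had 0.69 in macrophages (678.5 to 1092.5). Psmb10 lay between 0.04 in sDCs and 0.37 in macrophages.

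IL-10 given before LPS was compared with LPS alone, so this comparison shares its LPS group with the one above, and the values of each are set side by side without a correlation. Class I chains were lower with IL-10 in neutrophils and mast cells, and not in macrophages. The median over the chains was -0.55 in neutrophils (1 of 9 above 0), -0.65 in mast cells (0 of 9 above 0), -0.06 in sDCs (1 of 10) and 0.07 in macrophages (6 of 10), where the medians of all genes were 0.00, -0.03, 0.04 and -0.01. At least 2-fold lower were 2 of 14 MHC and loading genes in neutrophils (3.87% of all genes), 3 of 14 in mast cells (4.66%), 0 of 15 in sDCs (2.08%) and 0 of 15 in macrophages (4.58%). At least 2-fold higher was H2-Q1 in macrophages (5.5 to 26, 2.05), where 3.12% of all genes were higher, and no MHC or loading gene in neutrophils (3.06%), sDCs (2.61%) or mast cells (2.88%). Here too H2-Q1 was kept only through the groups with IL-10, so its count is no evidence of a difference.

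In neutrophils, H2-T22 had means of 677.5 untreated, 711.5 with IL-10, 3069 with LPS and 1212.5 with both (difference from LPS -1.34). H2-Q4 had 1024.5, 1337.5, 4825 and 2148.5 in the same order (-1.17). H2-T24 had 446.5, 608.5, 1828 and 1105 (-0.73). Each of these means with both agents lay between the untreated and the LPS mean. Tapbp had 4590, 5672.5, 11307 and 6701.5 (-0.75), and H2-K1 had 7030, 6516.5, 11055.5 and 7530.5 (-0.55). Calr went the other way, from 23105 with LPS to 34141 with both (0.56). The macrophage marker Emr1 moved alongside these genes in neutrophils, with 4346 untreated, 4305.5 with IL-10, 14667.5 with LPS and 5157.5 with both. The other macrophage markers in the table did not share that order, since Cd68 had 2788, 3319, 3140 and 4387.5, and Itgam had 136889, 91667, 26225 and 36909.5. The 3 markers summed to 44032.5 to 144023 in neutrophils against 111806.5 to 236436.5 in macrophages, none of them was at 0, and their part in the neutrophil differences was not tested. Most of each neutrophil sum was Itgam, which in untreated macrophages had 29511, whereas Cd68 had 185724.5 there. Emr1 was also found in eosinophils, at 14338.5 untreated and 22514.5 with LPS. Markers of mature neutrophils moved too, with Mmp8 at 122455, 115516, 17265 and 29556 and Cxcr2 at 52728, 59650, 3210 and 19833 in the same order, while Mpo lay between 20675 and 25600, and the part of such shifts was not tested either.

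In mast cells the lower genes were those of the H2-Q cluster. H2-Q6 had means of 24 untreated, 20.5 with IL-10, 554.5 with LPS and 177 with both (-1.64). H2-Q7 had 76, 79.5, 960.5 and 388.5 (-1.30), and H2-Q10 had 61.5, 67, 263 and 126 (-1.06). The retained-intron transcript of H2-Q7 had 843 with LPS and 335.5 with both, and its main coding transcript 69 and 40.5. All 3 genes stayed above their untreated means with both agents. H2-Q4 had 569.5, 677, 2243 and 1424.5 (-0.65). H2-T24, at 823.5 with LPS and 412 with both, was just short of 2-fold, and that last mean was also below the untreated 762.5. Canx (14243.5 to 21022.5, 0.56) and Calr (28834.5 to 39953, 0.47) were higher with both agents than with LPS.

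In macrophages and sDCs no chain was 2-fold lower with both agents than with LPS. H2-Q6 in macrophages had 232 untreated, 231.5 with IL-10, 2711.5 with LPS and 2264.5 with both (-0.26). H2-Q4 there had 1779, 2418, 7387 and 7796.5 (0.08), and H2-T22 had 2090.5, 2054, 4031 and 4225 (0.07). Thus H2-Q4 and H2-T22, which were lower with IL-10 in neutrophils, were as high with both agents as with LPS alone in macrophages, whereas H2-T24 had 1446 and 1232.5 there (-0.23). The difference between cell types was not tested. Tapbpl in macrophages was highest with both agents, at 2245 against 1583 with LPS (0.50). In sDCs the largest difference among the chains was that of H2-T24, from 573 to 305 (-0.91), followed by H2-T22, from 4348 to 3419 (-0.35).

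Of the proteasome genes, only Psme2b-ps differed by 2-fold between these groups. It went from 402.5 with LPS to 90.5 with both in neutrophils (-2.14), below its untreated 101.5, and from 350.5 to 146 in sDCs (-1.26), next to its untreated 145.5. That is 1 of 21 in neutrophils and 1 of 21 in sDCs, with 0 of 21 in macrophages (391 to 287, -0.44) and 0 of 20 in mast cells. The share of all genes at least 2-fold lower was 3.87% for neutrophils, 4.66% for mast cells, 4.58% for macrophages and 2.08% for sDCs. With 21 genes, 1 gene is near these shares. Psmb10 had a difference of -0.50 in neutrophils (846 to 598), of -0.33 in sDCs (4489 to 3575.5) and of 0.19 in macrophages (3629.5 to 4134). The 14 standard subunits had medians of 0.14 in mast cells, 0.12 in macrophages, 0.08 in sDCs and -0.08 in neutrophils.

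**Figure D4:**
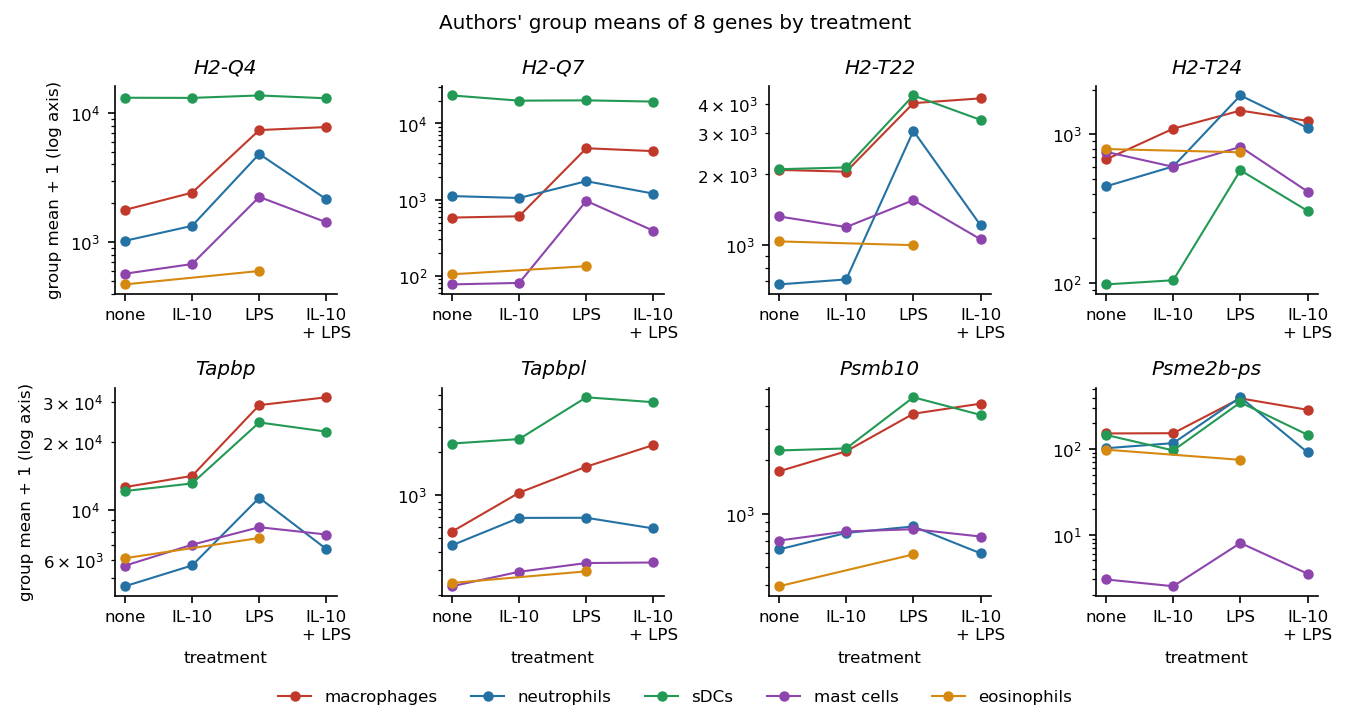
Authors' group means plus 1 on log axes for 8 genes with no agent, IL-10, LPS, and IL-10 plus LPS, 1 line per cell type; eosinophils had no IL-10 groups. The neutrophil line of H2-T22 runs from 677.5 to 3069 with LPS and back to 1212.5 with both, while the macrophage line runs from 2090.5 to 4031 and 4225.

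The sums over transcripts hid opposite differences within a few genes. In macrophages, the main coding transcript of Tapbp, ENSMUST00000025161, had 9410 untreated, 10873 with IL-10, 22488 with LPS and 27764.5 with both. The other coding transcript, ENSMUST00000114350, had 2031.5, 2121, 4723 and 1521 in the same order. With both agents it was therefore below its untreated mean while the main transcript was at its highest. In sDCs the second transcript had 2576, 3951, 6267 and 5125.5, and in neutrophils 698, 1078, 3162 and 1224. Reads shared by transcripts of 1 gene were split by estimate in the authors' counting, and the error of that split is not in the means.

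Psmd1, the cap subunit also known as Rpn2, carried a transcript seen in macrophages. ENSMUST00000152184, a processed transcript with no coding sequence annotated, had 373.5 untreated, 333 with IL-10, 100 with LPS and 87.5 with both in macrophages, and 4.5 or less in every group of the other cell types. Of its 939 exon bases, 252 (26.8%) overlap Htr2b, a serotonin receptor gene on the opposite strand. Htr2b itself had 1142, 1101.5, 182 and 184 in macrophages for its transcript ENSMUST00000027431, and 17.5 or less elsewhere. Without stranded counting, reads of the 2 genes from the shared bases cannot be told apart, and no source used here says whether strand was counted. How many of the reads came from the shared bases is not in the means. The main transcript of Psmd1, ENSMUST00000027432, does not overlap Htr2b and had 4981 untreated, 4587 with IL-10, 3631 with LPS and 3513 with both.

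**Figure D5:**
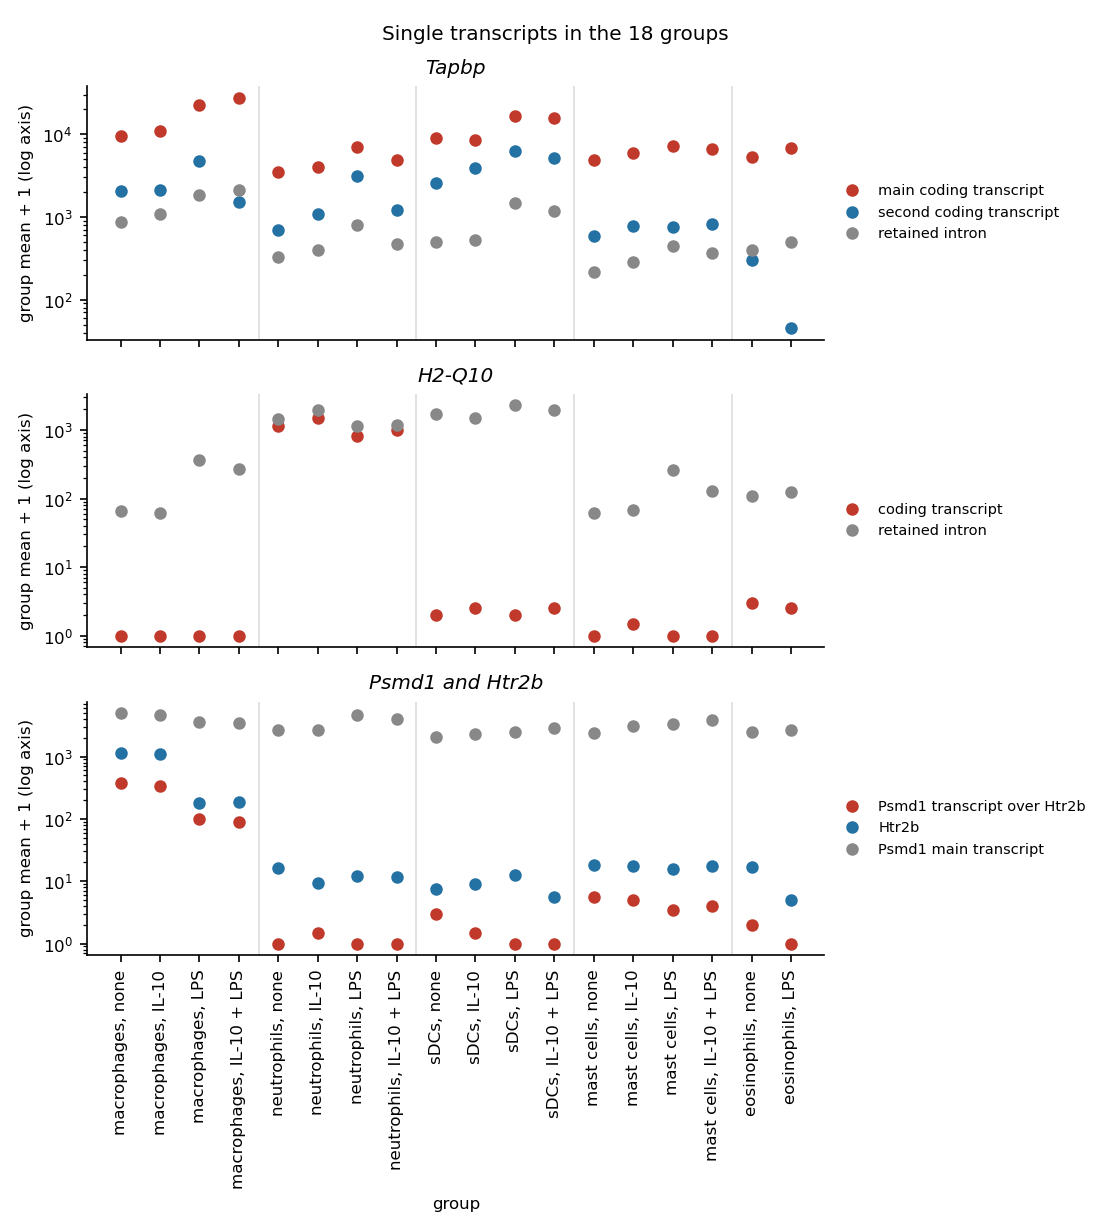
Authors' group means plus 1 on log axes for single transcripts of Tapbp, H2-Q10, and Psmd1 with Htr2b in the 18 groups, ordered by cell type and, within it, by treatment. The coding transcript of H2-Q10 stands at 822 to 1506 in neutrophils and at 2 or below elsewhere, and the Psmd1 transcript that overlaps Htr2b stands at 87.5 to 373.5 in macrophages and at 4.5 or below elsewhere.

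Other genes of the pathway were taken from a list of 54, of which 29 are in the table. With LPS, 8 were at least 2-fold higher and 4 lower in macrophages, where 12.7% and 14.8% of all genes were. There were 7 and 1 in neutrophils (8.71% and 7.88% of all genes), 7 and 3 in sDCs (9.04% and 11.5%), 5 and 1 in mast cells (4.76% and 5.46%), and 0 and 0 in eosinophils (2.16% and 0.702%). Stat2, a transcription factor downstream of interferon receptors, and the costimulatory receptor Cd40 were among the higher genes in all 4 of the first cell types. Stat2 went from 1348.5 to 9887 in macrophages (2.87), from 1135 to 6294 in neutrophils (2.47), from 2844.5 to 12213.5 in sDCs (2.10), from 1024 to 2451 in mast cells (1.26), and from 1281.5 to 1359 in eosinophils (0.08). With both agents Stat2 had 2509 in neutrophils (-1.33 from LPS), 1355.5 in mast cells (-0.85), 8427 in sDCs (-0.54) and 8879 in macrophages (-0.16). Nfe2l1, the transcription factor known to drive standard proteasome subunits, went from 4433 to 11869.5 in macrophages (1.42) and from 2656.5 to 5926.5 in neutrophils (1.16). The standard subunits had medians of 0.07 and 0.49 there. The difference of Nfe2l1 was 0.58 in eosinophils, 0.39 in sDCs and 0.20 in mast cells, where those medians were 0.06, 0.35 and 0.31. A link between Nfe2l1 and these subunits was not tested. Shfm1, a small 19S cap protein outside the Psm symbols, was lower in macrophages with LPS (6492.5 to 2885, -1.17).

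IL-10 alone gave 3 higher genes of that list in macrophages (among them Irf1 and Stat2), 2 in neutrophils (among them Irf1), 1 in sDCs and 1 in mast cells, and none lower, where 4.49%, 2.17%, 2.43% and 5.04% of all genes differed in either direction. Irf1, a transcriptional activator of class I genes, went from 993 to 4060 in macrophages (2.03) and from 1577 to 3356 in neutrophils (1.09). In those groups the class I chains had medians of 0.04 and 0.07. With LPS, the difference of Irf1 was 3.58 in macrophages, 1.38 in sDCs, 1.34 in mast cells, 0.97 in neutrophils and 0.01 in eosinophils. The chains had medians of 1.40, 0.24, 0.87, 0.70 and 0.18 in the same order. A link between Irf1 and the chains was not tested. With both agents against LPS, 1 gene was higher and 1 lower in macrophages (3.12% and 4.58% of all genes), 0 and 2 in neutrophils (3.06% and 3.87%), 1 and 0 in sDCs (2.61% and 2.08%), and 1 and 1 in mast cells (2.88% and 4.66%). With 29 genes, 1 gene is near these shares. March1, the ubiquitin ligase that removes class II and CD86 from the surface, was the higher gene in macrophages (2053 to 7330.5, 1.84), sDCs (126.5 to 1077, 3.08) and mast cells (30.5 to 91.5, 1.55). In neutrophils March1 went from 1356 to 2697.5 (0.99, just short of 2-fold).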

How the data were processed

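RNA-seq of 36 libraries (18 groups of 2 replicates) was used; 1 of 37 samples has no column in the table and was not used here. Per the submitters' processing notes, RSEM 1.2.1 and Bowtie 0.12.9 were run on mm9 (NCBIM37). The authors took the estimated tags of each transcript, normalized them for GC content with EDASeq, and deposited 1 mean per group, a score with no fixed unit. Every column has the highest value 185338, and depth cannot be read from these means. High transcripts also share values between columns. The main Canx transcript had 14222.5 in both macrophages and mast cells with LPS. The main Calr transcript had 27533.5 in neutrophils with IL-10 and in mast cells with LPS. Whether the columns were set to 1 shared distribution was not tested. If they were, levels and differences of high genes follow their ranks. Of 17015 complete lines, 22 (0.129%) had no gene name and were dropped, as was 1 broken line, leaving 16993 transcripts of 6509 genes, part of the transcriptome.

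Transcripts were summed per gene with Python 3.11.15, numpy 2.4.6 and pandas 2.3.3, and drawn with matplotlib 3.10.9. Within each cell type, genes with no group mean of at least 10 were left out. Differences were taken on log2(mean + 1), which understates those of low genes, and counted at 2-fold. The counting was tested on simulated data. Motif and shared-window searches used RefSeq promoters and GENCODE vM1 transcripts. Members and lists were chosen with earlier results of these data known. Named with values were a fixed list of loading, immunoproteasome and classical genes and, in each part, the 3 largest differences of at least 2-fold per comparison. The other genes and transcripts named were chosen after their values were seen. One gene of the wider pathway list was counted there but is not reported here by name.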

Additional observations from a re-analysis of the deposited data

Results flagged for a closer look

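Calr, the calreticulin gene, had opposite differences with LPS in separate cell types. Its mean was higher with LPS in mast cells, by 1.15 on log2(mean + 1) (13015 to 28834.5), and lower in macrophages, with a difference of -1.48 (45008.5 to 16091). With 1 mean per group the difference between the cell types was not tested.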

How the results depend on the processing

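No result changed direction under the alternatives run: centring on the median of all genes, the highest transcript in place of the sum, a pseudocount of 10, a minimum of 50, and no minimum. Of 37 gene values at 2-fold, centring and no minimum left all 37 on the same side of 2-fold. The highest transcript left 35, with H2-T22 (0.87) and Tapbp (0.88) in sDCs with LPS falling short, the pseudocount left 35 (the others were H2-Q1 in macrophages), and the minimum of 50 left 34, with 3 removed. Of the 26 counts of members, those that moved by over 1.5 times with LPS were these: proteasome genes in sDCs from 1 to 2 on centring, MHC and loading genes from 4 to 2 in sDCs and from 0 to 1 in eosinophils with the highest transcript, and proteasome genes in mast cells from 0 to 1 with no minimum. For IL-10 alone they were MHC and loading genes, from 1 to 0 in macrophages with the pseudocount of 10 and with the minimum of 50, and from 1 to 2 in mast cells with no minimum. For both agents against LPS they were MHC and loading genes, from 1 to 0 in macrophages with the minimum of 50, and proteasome genes from 0 to 1 in mast cells with no minimum. Smaller moves were those of macrophages with LPS, where proteasome genes went from 2 to 3 on centring and MHC and loading genes from 10 to 11 on centring and to 9 with the pseudocount of 10 or the minimum of 50, and those of MHC and loading genes with both agents and no minimum, from 2 to 3 in neutrophils and from 3 to 4 in mast cells. In each case without a minimum the added gene had means under 10; otherwise the cause was not tested. No paired analysis was possible because the table holds only the mean of the replicates, so a replicate block and leaving out a replicate were not run.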

Other observations

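The genes with an H2- symbol that encode no MHC chain lie in the same region of chromosome 17 and had no difference of 2-fold in any comparison. H2-Ke6, a hydroxysteroid dehydrogenase, had its largest difference with LPS in sDCs (656.5 to 355, -0.89) and a difference below 0 in all 5 cell types, from -0.89 to -0.09. H2-Ke2, a prefoldin subunit, lay between -0.10 and 0.44 with LPS.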
